A study of Mus musculus with 2 samples.

Results

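Teneurins, latrophilins and Flrt proteins are cell-surface proteins through which neighbouring cells bind each other in the developing brain. The 10 genes described here are the 4 teneurin genes (Tenm1, Tenm2, Tenm3 and Tenm4), the 3 latrophilin genes (Adgrl1, Adgrl2 and Adgrl3) and the 3 Flrt genes (Flrt1, Flrt2 and Flrt3). They were chosen by symbol as gene families, and each symbol matched 1 of the 32285 genes in the count tables. Cells came from the dorsal telencephalon, the embryonic region that forms the cerebral cortex, of mouse embryos at embryonic day 16.5. The labels give both libraries the genotype WT, within a series built around conditional deletion of Dot1l by Emx1-Cre. The conditional knockout was not analysed here, so each comparison is between cell classes within WT tissue. The labels give no strain, and the strain named in the study's text for cortices of this age is C57BL/6J. Cre or floxed alleles of the WT embryos and the number of embryos per library are not given in the sources used here.

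Teneurins are large proteins that cross the membrane once and act as ligands, and latrophilins are adhesion G protein-coupled receptors that bind them on the opposite cell. Flrt proteins carry leucine-rich repeats and fibronectin domains, bind latrophilins at another site, and also bind Unc5 receptors, which turns contact into repulsion for migrating cortical neurons. In the forebrain these genes are known for guiding migration, matching axons to their targets and specifying where synapses form on a dendrite.

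WT replicate 1 held 14136 cells with 74930397 unique molecular identifiers (UMIs, 1 per captured mRNA molecule) and WT replicate 6 held 13046 cells with 68964234. Of 16348 cells that passed the filters, 6922 (42.3%) fell into exactly 1 of 18 classes, each defined by marker genes that include none of the 10 members. Classes held between 20 and 767 cells per library, with median depths from 3094 to 12363 UMIs per cell. No gene of a class's own marker list was at 0 in that class. The libraries shared 59 cell barcodes. Xist RNA numbered 76258 UMIs in the first library against 10 in the other, and the Y-linked gene Ddx3y 5 against 2193, so sex and library cannot be told apart. Levels are UMIs of a gene per 1000000 UMIs of the class (CPM), always with WT replicate 1 first and WT replicate 6 second, and they compare a gene only with itself between classes.

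Free RNA in the cell suspension gives UMIs in cells that do not make a transcript, and erythroid cells, which should lack all 10 genes, were used to see its size. Tenm2 reached 149 and 346 CPM in erythroid cells, Adgrl3 111 and 150.1, Tenm4 80.8 and 136 and Flrt1 1.9 and 5.93. Levels elsewhere at or below these values are called background, which means only that they did not exceed the erythroid level. That level is not a floor shared by all classes, since Tenm2 was at 27 and 48.3 CPM in fibroblasts. Erythroid cells were also shallow, with medians of 3094 and 3757 UMIs against 9528 and 9236 in radial glia. How depth changes the share of free RNA was not tested. Of the 17 other classes, 16 lay above the higher erythroid library for Adgrl1 in both libraries, 15 for Adgrl2, 14 for Adgrl3 and Flrt3, 12 for Tenm3 and Flrt2, 11 for Tenm2, Tenm4 and Flrt1, and 9 for Tenm1. Adgrl1 thus exceeded the erythroid level nearly everywhere, whereas Tenm1 did so in both libraries only in neurons. For Tenm1 that level, at 24.7 and 36.2 CPM, lay far above endothelial cells (1.27 and 1.13). Radial glia (20.05 and 18.24) and intermediate progenitors (35.3 and 39) also lay above endothelial cells. The erythroid level therefore cannot decide whether these progenitors make Tenm1, which was not tested.

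The members differ greatly in genomic size, which matters because whether intronic reads were counted is not given in the sources used here. On GRCm38.p6, the build named mm10 in the labels, Tenm3 spans 1297160 bases (chr8:48225665-49522824, minus strand) and Tenm2 1230398 bases (chr11:36006656-37237053, minus strand), whereas Flrt3 spans 13279 bases (chr2:140658198-140671476, minus strand). Tenm1 (chrX:42527866-43429168, minus strand) spans 901303 bases, Adgrl3 (chr5:81019085-81827825, plus strand) 808741 and Tenm4 (chr7:96171244-96911093, plus strand) 739850. Adgrl2 (chr3:148815586-148989096, minus strand) spans 173511 bases, Flrt2 (chr12:95692006-95785215, plus strand) 93210, Flrt1 (chr19:7087464-7166183, minus strand) 78720 and Adgrl1 (chr8:83900098-83941954, plus strand) 41857. Flrt1 lies wholly inside Macrod1 and Flrt3 wholly inside Macrod2, each on the opposite strand. Whether strand was used in counting is not given either, so counts of these pairs are uncertain.

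For 3 members, 1 per family, the RefSeq start coincides with the outer end of the gene. The 250 bases upstream of that start are shown to set their sequence beside how evenly the level of each gene was spread over classes. The sequences are RefSeq's, on GRCm38.p6, read 5′ to 3′ on the gene's strand, with each CG dinucleotide in capitals.
Tenm4, chr7:96170994-96171243, plus strand: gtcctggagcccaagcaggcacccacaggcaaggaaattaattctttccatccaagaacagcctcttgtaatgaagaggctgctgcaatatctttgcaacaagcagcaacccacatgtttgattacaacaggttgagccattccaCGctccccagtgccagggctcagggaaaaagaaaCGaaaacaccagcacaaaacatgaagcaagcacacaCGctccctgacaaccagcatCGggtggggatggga
Adgrl1, chr8:83899848-83900097, plus strand: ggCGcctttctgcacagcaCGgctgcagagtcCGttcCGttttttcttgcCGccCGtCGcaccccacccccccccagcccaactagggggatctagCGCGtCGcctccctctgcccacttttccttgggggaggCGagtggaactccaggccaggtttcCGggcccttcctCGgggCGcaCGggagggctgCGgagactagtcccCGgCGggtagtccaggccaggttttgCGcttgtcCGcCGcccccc
Flrt3, chr2:140671477-140671726, minus strand: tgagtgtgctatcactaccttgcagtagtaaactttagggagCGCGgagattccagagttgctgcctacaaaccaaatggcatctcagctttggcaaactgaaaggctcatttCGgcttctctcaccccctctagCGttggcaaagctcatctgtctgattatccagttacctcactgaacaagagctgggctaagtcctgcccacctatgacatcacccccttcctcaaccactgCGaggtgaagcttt
The window of Adgrl1 held 21 CG dinucleotides, those of Flrt3 and Tenm4 held 5 and 4, and the median over 32544 promoters was 6. A second Tenm4 promoter in RefSeq, inside the gene, held 8. The highest class stood 1.76-fold above the median class for Adgrl1, 4.04-fold for Flrt3 and 4.69-fold for Tenm4. The letters CAGATG, searched on both strands, occurred once in the window of Flrt3 and in neither of the other windows, against 14.4% of all promoters. These counts describe the letters and were not tested against expression.

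Among the ligands, Tenm2, whose product is a high-affinity partner of latrophilin 1, had its highest levels in postmitotic neurons, with a peak in deep layers. Layer 6 neurons had 7372 and 8049.7 CPM, layer 5 neurons 4854 and 4949, and interneurons of the medial ganglionic eminence (MGE) 3762 and 4984. Layer 6 stood apart from layer 5, and layer 5 from upper-layer neurons, while the ranges of MGE interneurons and layer 5 neurons overlapped. Radial glia, at 145 and 172 CPM, lay at the erythroid level. Intermediate progenitors (812 and 537) and cycling progenitors of the ganglionic eminence (539 and 393) exceeded it in both libraries. Cajal-Retzius cells, although neurons, held 493 and 369 CPM, a range that overlapped that of the ganglionic eminence progenitors. Tenm1, the X-linked family member, was also highest in layer 6, with 241 and 277 CPM there and between 77.4 and 220.2 CPM in the other layered, interneuron, striatal and Cajal-Retzius classes, whose ranges overlapped from neighbour to neighbour in the order. Endothelial cells and fibroblasts each gave 1 Tenm1 UMI per library. Tenm1 was higher in WT replicate 1 in 10 of 18 classes, and over all kept cells it reached 102 CPM in both libraries.

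Tenm3, known for matching axons to targets in hippocampal and visual circuits, was highest in upper-layer neurons, at 946 and 1051 CPM. Layer 6 neurons followed at 571 and 627, apart from both the class above and the striatal classes below. Radial glia carried 299.96 and 309 CPM, a level whose range overlapped that of layer 5 neurons (269 and 328). The erythroid level was 33.3 and 57.9, so cortical progenitors held Tenm3 above background. Cajal-Retzius cells, the Reln-expressing neurons of the marginal zone, were at background for Tenm3 with 25.7 and 39.7 CPM.

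Tenm4, known from myelination as a regulator of oligodendrocyte differentiation, had its peak in the youngest excitatory cells. Newborn excitatory neurons had 1608 and 1654 CPM and intermediate progenitors (IPCs) 1557 and 1564, followed by upper-layer neurons at 1016 and 1069 and layer 6 neurons at 920.4 and 1143. Radial glia were far lower, at 199 and 186, and still above the erythroid level of 80.8 and 136. Oligodendrocyte precursors, with 40.5 and 9.38 CPM from 11 and 2 UMIs, did not exceed the erythroid level.

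**Figure D1:**
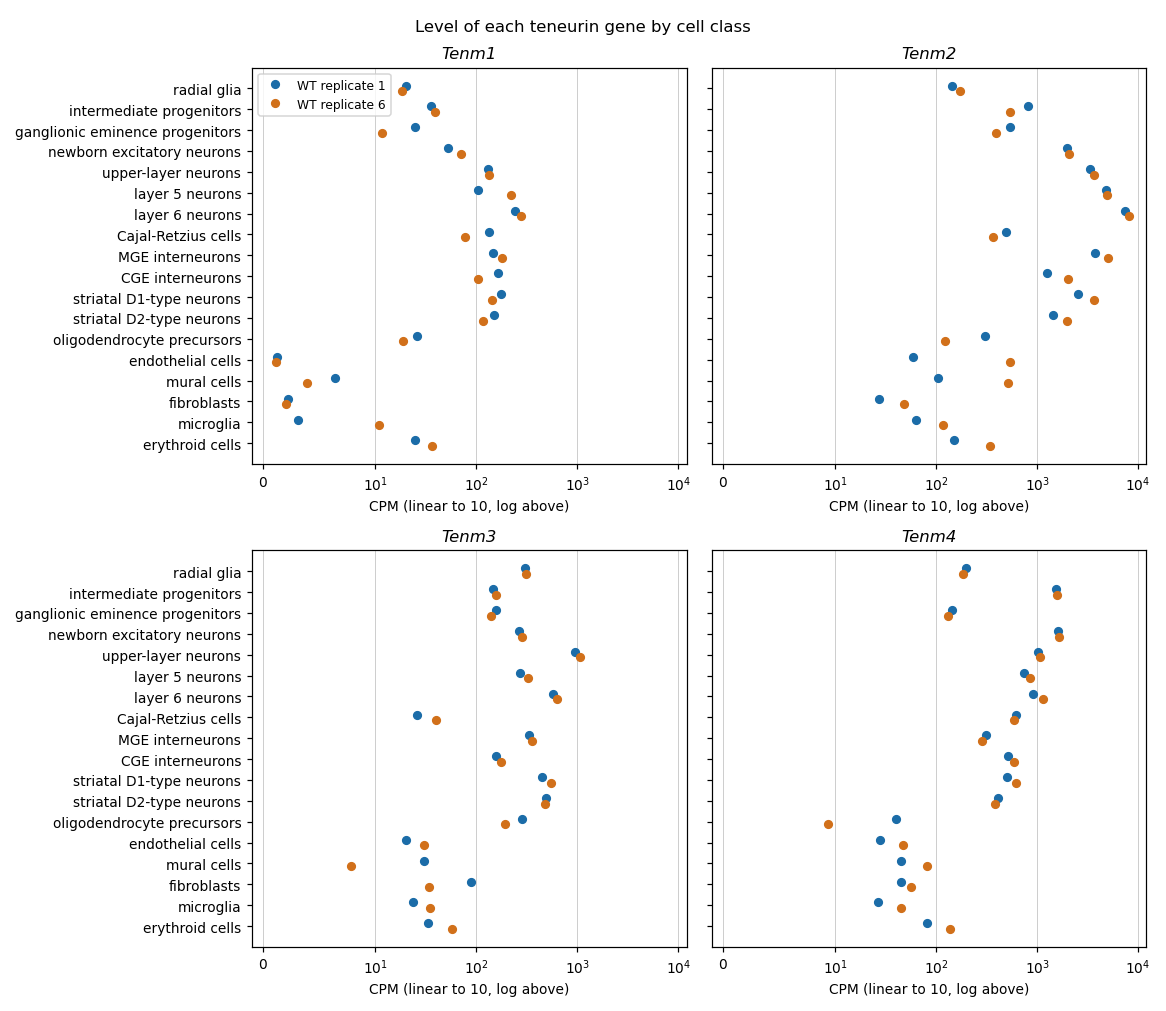
Level of each teneurin gene in CPM (horizontal axis, linear up to 10 and logarithmic above) in 18 cell classes, with 1 point per library. Tenm1 and Tenm2 peak in layer 6 neurons, Tenm3 in upper-layer neurons, and Tenm4 in newborn excitatory neurons and intermediate progenitors, which lie within 1.04-fold of each other.

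Among the receptors, Adgrl1, the calcium-independent receptor of the spider toxin alpha-latrotoxin, was the most evenly spread member. Striatal D1-type neurons had 123 and 114 CPM, and layer 6, D2-type, Cajal-Retzius and layer 5 neurons overlapped with them or with each other. The 9 classes of neurons, newborn ones included, lay between 78.1 and 127.2 CPM, and radial glia, at 33.5 and 30.6, were the lowest class outside blood and microglia. Which class is highest is not settled, because it was D2-type neurons or layer 6 neurons under 3 of the alternative settings.

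Adgrl2, which in the hippocampus sits at synapses on distal dendrites, had high levels in both neurons and vessels. Upper-layer neurons reached 512 and 527 CPM, endothelial cells 438 and 498 and newborn excitatory neurons 434 and 447. Layer 6 neurons were lower at 268 and 295, and layer 5 neurons lower still at 189.8 and 183. Microglia held 139.9 and 165 CPM, above the 39.9 and 49.4 of erythroid cells, and no other member exceeded the erythroid level in microglia in both libraries. Interneurons of the caudal ganglionic eminence (CGE), at 24 and 66.1, lay below both erythroid values in WT replicate 1 and above both in WT replicate 6. These levels rest on 27 UMIs over both libraries.

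Adgrl3, a high-affinity receptor of Flrt3, was highest in oligodendrocyte precursors, the proliferating cells of the myelinating lineage, with 1275 and 1979 CPM. Layer 5 neurons reached 1125 and 2026, and these 2 ranges overlapped. Both classes rest on few cells, 26 and 20 oligodendrocyte precursors and 28 and 44 layer 5 neurons. MGE interneurons followed at 977 and 961 and upper-layer neurons at 891 and 887. Mural cells, the pericytes and smooth muscle of vessel walls, held 490.0 and 489.7 CPM. Of the 17 steps between neighbouring classes in the order of Adgrl3, 11 were larger than the spread of the libraries, the most of any member.

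Flrt1, which is known to modulate fibroblast growth factor receptor signalling, had the fewest UMIs of the members, 3308 over all kept cells. It was highest in IPCs, at 39.9 and 64.4 CPM, with newborn excitatory neurons at 42.2 and 53.9 and CGE interneurons at 63.1 and 27.8. Those 3 ranges overlapped. No Flrt1 UMI was found among 787836 and 885318 UMIs of endothelial cells or among 271408 and 213267 UMIs of oligodendrocyte precursors.

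Flrt2, whose shed ectodomain repels neurons that carry Unc5d, spanned unrelated cell types. Fibroblasts had 438 and 364 CPM, striatal D1-type neurons 368 and 396, layer 6 neurons 337 and 415 and progenitors of the ganglionic eminence 291 and 295. The first 6 classes in its order, from fibroblasts to layer 5 neurons, overlapped from neighbour to neighbour. Endothelial cells held 251 and 247 CPM, whereas radial glia (43.2 and 37.2) and IPCs (45.5 and 33.7) lay within the erythroid range of 28.5 and 54.

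Flrt3, which together with Flrt1 restrains folding of the mouse cortex, was highest in upper-layer neurons, at 147 and 148 CPM. Cajal-Retzius cells, at 131 and 153, could not be told apart from them. Striatal D1-type neurons followed at 113 and 89.7 and newborn excitatory neurons at 67.7 and 78.5. Layer 6 neurons had 20.2 and 44.5, from 18 and 35 UMIs.

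**Figure D2:**
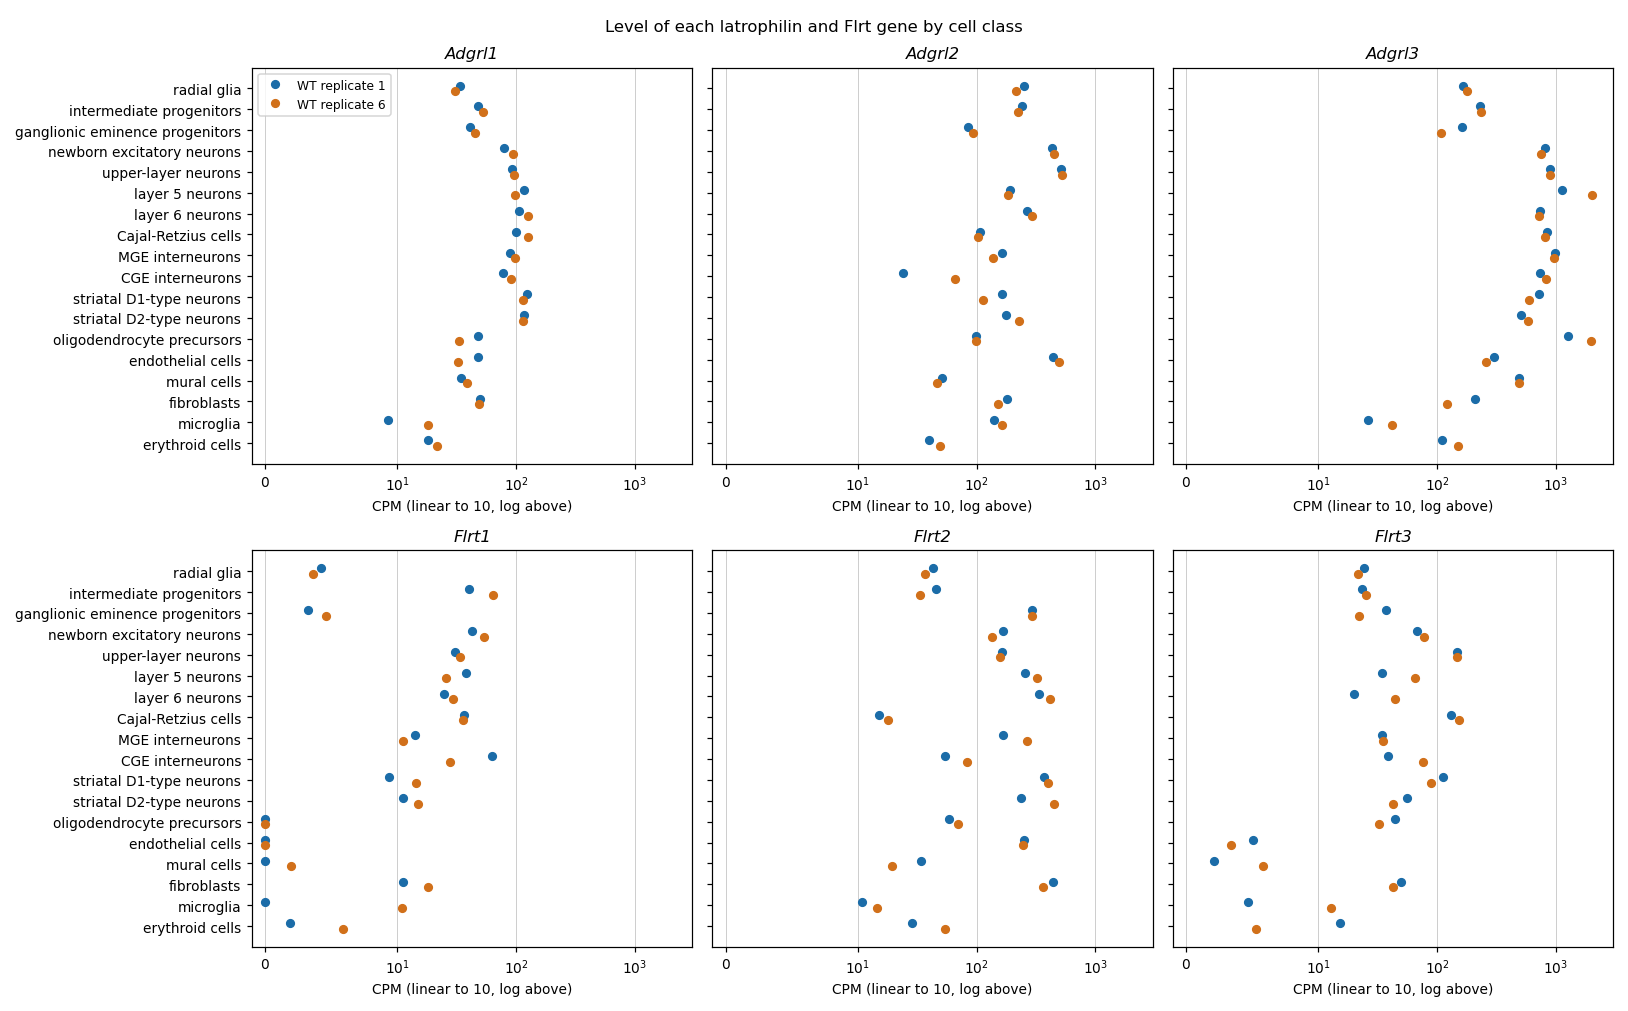
Level of each latrophilin and Flrt gene in CPM (horizontal axis, linear up to 10 and logarithmic above) in 18 cell classes, with 1 point per library. Adgrl1 is nearly even among neurons, Adgrl2 is high in upper-layer neurons and endothelial cells, and Flrt2 is high in fibroblasts, striatal and layer 6 neurons.

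Differences between classes were tested on UMIs summed per class and library (2 sums per class) by edgeR's quasi-likelihood test, two-sided, with Benjamini-Hochberg adjustment over all genes tested and 0.05 as threshold. They are given as log2 differences of the first-named class minus the second, ± SE. Both libraries contribute to both classes of each comparison. Of 114 tests of a member, 64 passed. The share of all genes that passed ran from 4.16% to 49.5% between comparisons and is given beside each. In all 64 calls the difference had the same sign within each library. A call on these same sums nearly requires this, so it is no separate support. Whether the 2 libraries come from separate litters is not given in the sources used here, so p-values measure the spread between these libraries only. Classes were tested in 12 comparisons that follow the excitatory lineage, the cortical layers, the inhibitory and striatal neurons and the vessels.

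**Figure D3:**
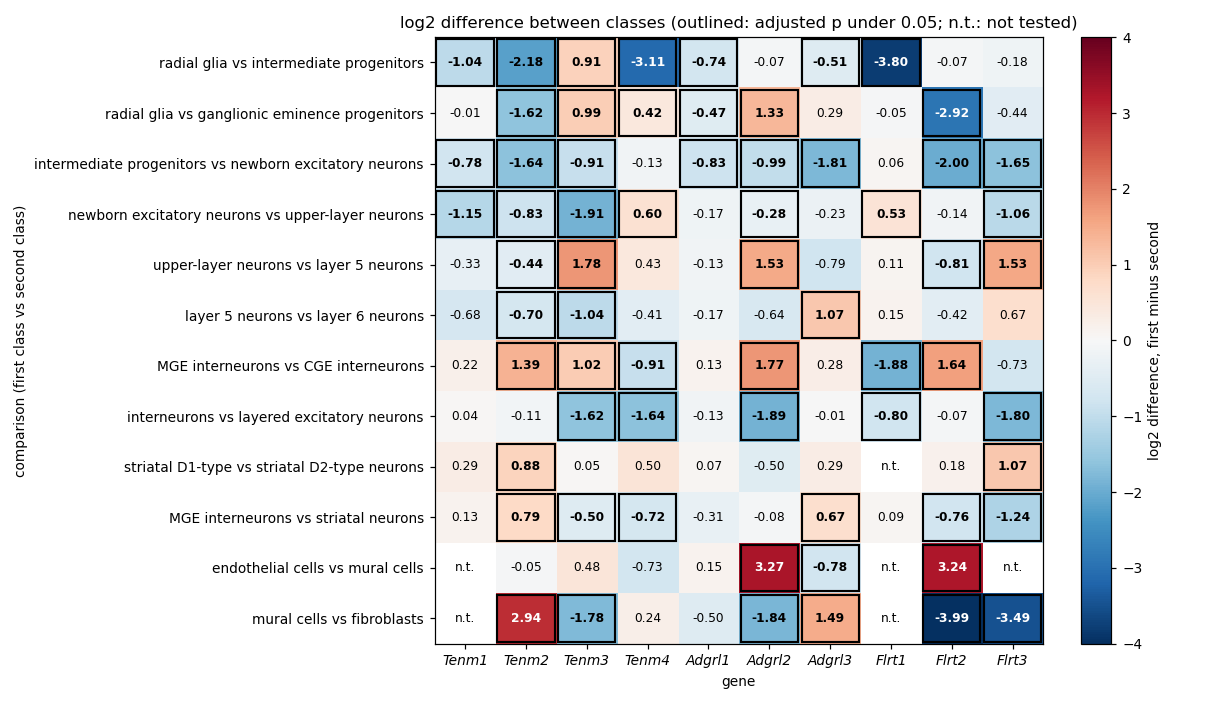
log2 difference (colour and number, first-named class minus second) of the 10 members in 12 comparisons, with calls at an adjusted p under 0.05 outlined. In the step from intermediate progenitors to newborn excitatory neurons 8 members were lower in the progenitors, and in the comparison of striatal types 2 members were called.

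Radial glia, the stem cells of the cortex, were first compared with their daughter IPCs. Of 10 members 7 differed, 1 higher and 6 lower in radial glia, where 49.5% of 12528 genes passed the same test (25.5% higher and 24.0% lower). Tenm4 went from 199 and 186 to 1557 and 1564 CPM, a difference of -3.11 ± 0.11, adjusted p = 2.91e-08. Flrt1 went from 4.24 and 3.65 to 39.9 and 64.4 CPM (-3.80 ± 0.32, adjusted p = 7.01e-06), with within-library differences of -3.17 and -4.08. Both genes were thus low in radial glia and near their maximum in IPCs as gated here, with no overlap between classes. The IPC class also carried excitatory neuron markers, which summed to 1128 and 1124 CPM. The sums were 1727 and 1630 in newborn neurons and 70.6 and 58.4 in radial glia. Cycling markers were carried by 19.3% and 17.8% of IPCs. With stricter gates Tenm4 in IPCs differed from newborn neurons by -0.72 ± 0.08. The part of neuronal RNA in these levels was not tested. Tenm2 (-2.18 ± 0.19, adjusted p = 9.53e-06) and Tenm1 (-1.04 ± 0.16, adjusted p = 5.23e-04) were also higher in IPCs, from a level in radial glia no higher than in erythroid cells, and Tenm1 in IPCs (35.3 and 39 CPM) still overlapped the erythroid range of 24.7 and 36.2. Tenm3 went the other way and was higher in radial glia (0.91 ± 0.10, adjusted p = 3.80e-05). The latrophilins Adgrl1 (-0.74 ± 0.14, adjusted p = 0.00161) and Adgrl3 (-0.51 ± 0.10, adjusted p = 0.00177) were slightly lower in radial glia, a call that stricter gates ended for both and that the single fit over all classes and the narrower cell filter ended for Adgrl3. Adgrl2, Flrt2 and Flrt3 gave -0.07, -0.07 and -0.18 and did not pass. Adgrl2 passed in opposite directions under 2 alternatives, at 0.37 with stricter gates and -0.31 among progenitors without cycling markers, where Flrt2 passed at 0.57.

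The binding partners, a list of 19 genes whose products bind Flrt, latrophilin or teneurin proteins or are related to them, were counted in the same fits. Between radial glia and IPCs, 6 of 17 tested partners were higher and 8 lower, with a median of -0.59 beside -0.01 over all genes. The growth factor receptor gene Fgfr3, at 2.50, was the partner with the largest difference towards radial glia. The netrin receptor gene Unc5a had the largest towards IPCs, at -5.34, with 0 and 3 UMIs in radial glia. Unc5d, the Flrt2 receptor, was lower in radial glia (-3.65) and was singled out after its value was seen.

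IPCs were next compared with newborn excitatory neurons, their Neurod1-expressing progeny. All but 2 of the 10 members, 8 in number, were lower in IPCs and none was higher, where 36.3% of 12664 genes passed the same test (18.2% higher and 18.1% lower). Flrt2 rose from 45.5 and 33.7 to 166 and 135 CPM (-2.00 ± 0.15, adjusted p = 3.52e-06) and Flrt3 from 23.4 and 25.2 to 67.7 and 78.5 (-1.65 ± 0.12, adjusted p = 3.49e-06). Adgrl3, from 230.3 and 234 to 814 and 746 CPM, gave -1.81 ± 0.09, adjusted p = 2.16e-07. These Flrt genes and the receptor that binds Flrt3 were thus all lower in IPCs in both libraries, with no overlap. Tenm2 (-1.64 ± 0.16), Adgrl2 (-0.99 ± 0.09), Tenm3 (-0.91 ± 0.08), Adgrl1 (-0.83 ± 0.11) and Tenm1 (-0.78 ± 0.14) followed, with adjusted p from 8.53e-06 to 0.00177. Flrt1 (0.06) and Tenm4 (-0.13, adjusted p = 0.2) did not pass. A fit with library as a block term called Tenm4 at -0.13 ± 0.04 (adjusted p = 0.00974), and so did stricter gates at -0.72 ± 0.08 (adjusted p = 6.49e-05). Among partners, 3 of 17 were higher and 9 lower (median -0.50 beside 0.00 over all genes). The contactin gene Cntn6 (2.51) had the largest difference towards IPCs and the postsynaptic scaffold gene Shank1 (-1.81) the largest towards newborn neurons.

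Newborn neurons were compared with upper-layer neurons, which were gated on upper-layer markers and on the absence of Neurod1. Of 10 members 7 passed, 2 higher and 5 lower in newborn neurons, where 14.0% of 12780 genes passed the same test (8.2% higher and 5.84% lower). Tenm3 had the largest difference, from 265 and 284 to 946 and 1051 CPM (-1.91 ± 0.08, adjusted p = 1.88e-06), ahead of Tenm1 (-1.15 ± 0.12, adjusted p = 2.08e-04), Flrt3 (-1.06 ± 0.08, adjusted p = 4.87e-05) and Tenm2 (-0.83 ± 0.06, adjusted p = 3.14e-05). Tenm4 was higher in newborn neurons (0.60 ± 0.06, adjusted p = 2.06e-04), as was Flrt1 (0.53 ± 0.13, adjusted p = 0.0246). Tenm4 thus differed in direction from the other 3 teneurins. In the single fit over all classes Tenm2, Tenm4 and Flrt1 lost their calls (adjusted p = 0.465, 0.0598 and 0.123), and Flrt1 lost its call under DESeq2 (adjusted p = 0.141) as well. Adgrl2 differed by -0.28 ± 0.07, a call that 4 alternatives ended. Adgrl3 passed only with the library as a block, without the filter on low counts or with stricter gates, and gave -0.23 ± 0.05 (adjusted p = 2.62e-04) with the block. Adgrl1 (-0.17) and Flrt2 (-0.14) did not pass. Of 16 partners, 6 were higher and 2 lower (median 0.31 beside -0.01). Unc5d was highest relative to upper-layer neurons (1.4), and Unc5c, another netrin receptor, lowest (-2.33).

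**Figure D4:**
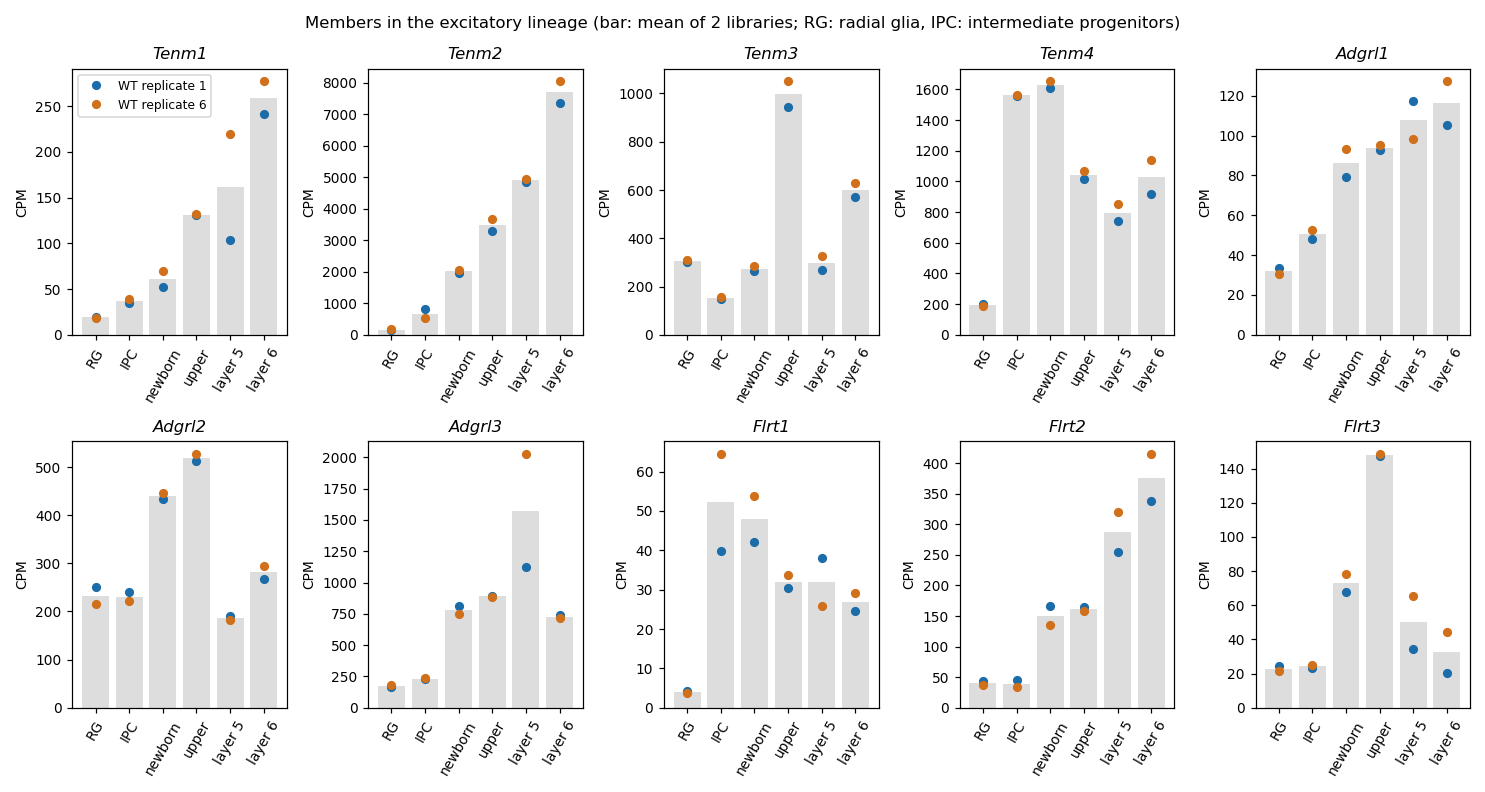
Level of the 10 members in CPM (vertical axis, from 0) along the excitatory lineage, with a bar for the mean and 1 point per library (n = 2). Tenm4 and Flrt1 step up between radial glia and intermediate progenitors, Flrt2, Flrt3 and Adgrl3 between intermediate progenitors and newborn neurons, and Tenm3 and Flrt3 peak in upper-layer neurons.

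Between upper-layer and layer 5 neurons 5 members differed, 3 higher and 2 lower in upper layers, where 6.39% of 11635 genes passed the same test (2.38% higher and 4.01% lower). Tenm3 (946 and 1051 against 269 and 328 CPM) was higher by 1.78 ± 0.15, adjusted p = 3.61e-05, Adgrl2 (512 and 527 against 189.8 and 183) by 1.53 ± 0.14, adjusted p = 7.20e-05, and Flrt3 (147 and 148 against 34.5 and 65.6) by 1.53 ± 0.22, adjusted p = 0.0014. A teneurin, a latrophilin and a Flrt were thus each enriched in the upper layers. Flrt2 went the other way (-0.81 ± 0.14, adjusted p = 0.0052), as did Tenm2 (-0.44 ± 0.11, adjusted p = 0.0338). Both of these calls were lost among cells with 3000 to 30000 UMIs, where they gave -0.39 and -0.10, and Tenm2 also lost its call with doublets left out and in the single fit. Adgrl3 (-0.79 ± 0.22) and Tenm4 (0.43 ± 0.13) missed the threshold at adjusted p = 0.0666 and 0.0893 and passed with the library as a block (-0.74 ± 0.11, adjusted p = 3.39e-09, and 0.43 ± 0.12, adjusted p = 0.00542). In other alternatives Tenm4 passed with DESeq2, without the filter on low counts and with doublets left out, and Adgrl3 in each alternative that gives a test other than DESeq2. Tenm1, Adgrl1 and Flrt1 gave -0.33, -0.13 and 0.11. Among 16 partners, 2 were higher and 4 lower (median -0.05 beside 0.03), led by Unc5c (2.13) and Cntn6 (-5.03), the latter with 2 UMIs in 1 layer 5 library. The 5 markers of newborn excitatory neurons summed to 1587 and 1211 CPM in layer 5 neurons against 644 and 708 in upper-layer neurons, and their part in these differences was not tested.

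Layer 5 and layer 6 neurons differed in 3 members, 1 higher and 2 lower in layer 5, where 4.16% of 7962 genes passed the same test (1.57% higher and 2.59% lower). Tenm2, at 4854 and 4949 against 7372 and 8049.7 CPM, was lower in layer 5 (-0.70 ± 0.12, adjusted p = 0.00754), and so was Tenm3, at 269 and 328 against 571 and 627 (-1.04 ± 0.19, adjusted p = 0.0113). The Tenm2 call was lost in the single fit (adjusted p = 0.679) and the Tenm3 call with stricter gates (adjusted p = 0.0753). Adgrl3 was higher in layer 5, at 1125 and 2026 against 738 and 718 CPM (1.07 ± 0.24, adjusted p = 0.0349), and its 2 layer 5 libraries lay far apart. The within-library differences of Adgrl3 were 0.61 and 1.5. With the library as a block 6 members passed, adding Tenm1 (-0.72 ± 0.21, adjusted p = 0.0435), Tenm4 (-0.41 ± 0.11, adjusted p = 0.0284) and Adgrl2 (-0.65 ± 0.18, adjusted p = 0.0338), all lower in layer 5. Adgrl1, Flrt1, Flrt2 and Flrt3 gave -0.17, 0.15, -0.42 and 0.67. None of 15 partners passed edgeR's or DESeq2's test, and 3 had an unadjusted p under 0.05 by edgeR and 0 by DESeq2 (median 0.02 beside -0.01). With the library as a block 2 partners passed, as they did in number without the filter on low counts and with stricter gates, and 1 passed with the narrower cell filter and with doublets left out. Markers of newborn excitatory neurons moved with this comparison, summing to 1587 and 1211 CPM in layer 5 and 161 and 145 in layer 6 neurons, with 2 of the 5 at 0 in each class, beside 1714 and 1737 in newborn neurons themselves. Their part in the differences was not tested.

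Radial glia of the cortex were also compared with cycling progenitors of the ganglionic eminence, the ventral source of inhibitory neurons. Of 10 members 6 differed, 3 higher and 3 lower in radial glia, where 43.3% of 12098 genes passed the same test (22.0% higher and 21.3% lower). Flrt2 was lower in radial glia, at 43.2 and 37.2 against 291 and 295 CPM (-2.92 ± 0.13, adjusted p = 1.72e-07), and so was Tenm2, at 145 and 172 against 539 and 393 (-1.62 ± 0.17, adjusted p = 3.96e-05). Adgrl2 (250.2 and 216 against 85.4 and 93.1 CPM) and Tenm3 (299.96 and 309 against 155 and 139) were higher in radial glia, by 1.33 ± 0.12, adjusted p = 1.90e-05 and 0.99 ± 0.12, adjusted p = 9.31e-05. Each of these 4 genes had libraries that did not overlap between the classes. The ventral class was gated on cycling markers and the radial glia were not, of which 44.0% and 46.2% carried them. Among cycling radial glia alone, an alternative chosen after seeing the data, the smaller calls of Tenm4 (0.42 ± 0.11, adjusted p = 0.0136) and Adgrl1 (-0.47 ± 0.16, adjusted p = 0.0372) were lost at 0.23 ± 0.14 (adjusted p = 0.219) and -0.41 ± 0.19 (adjusted p = 0.124), and 4 members passed. Tenm4 was also not called by DESeq2 or in the single fit, nor Adgrl1 by DESeq2, without TMM scaling, with doublets left out or with stricter gates. Tenm1, Adgrl3, Flrt1 and Flrt3 gave -0.01, 0.29, -0.05 and -0.44, of which Tenm1 (0.92 ± 0.27, adjusted p = 0.0176, the sign reversed) and Adgrl3 (0.60 ± 0.18, adjusted p = 0.0197) passed with doublets left out. Of 16 partners, 8 were higher and 4 lower (median 0.48 beside 0.01), with Cntn6 at 3.76 and the neurexin gene Nrxn3 at -5.14.

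Interneurons reach the cortex from the MGE and the CGE, and these origins differed in 6 members, 4 higher and 2 lower in MGE interneurons, where 6.65% of 9049 genes passed the same test (3.35% higher and 3.3% lower). Adgrl2 (165 and 139 against 24 and 66.1 CPM) was higher by 1.77 ± 0.32, adjusted p = 0.00459, Flrt2 (168 and 264 against 54.1 and 83.5) by 1.64 ± 0.29, adjusted p = 0.0044, Tenm2 by 1.39 ± 0.21, adjusted p = 0.00119 and Tenm3 by 1.02 ± 0.17, adjusted p = 0.00237. Tenm4 was lower in MGE interneurons, at 309 and 286 against 517 and 585 CPM (-0.91 ± 0.16, adjusted p = 0.00342), the opposite direction to Tenm2 and Tenm3. The single fit did not call Tenm2 (adjusted p = 0.134). Flrt1 was lower too (-1.88 ± 0.43, adjusted p = 0.0205), on 8 UMIs in 1 CGE library, and lost its call under DESeq2. Tenm1, Adgrl1, Adgrl3 and Flrt3 gave 0.22, 0.13, 0.28 and -0.73. Partners with a higher level numbered 3 of 15, and 2 were lower (median 0.29 beside 0.01), with Unc5c at 2.87 and Unc5b at -3.98.

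Against layered excitatory neurons, all interneurons together were lower in 5 members and higher in none, where 34.8% of 12805 genes passed the same test (17.6% higher and 17.3% lower). The 5 were Adgrl2 (139 and 126 against 467 and 485 CPM, -1.89 ± 0.10, adjusted p = 6.58e-07), Flrt3 (35.2 and 42.1 against 126 and 133, -1.80 ± 0.12, adjusted p = 2.81e-06), Tenm4 (-1.64 ± 0.09, adjusted p = 8.43e-07), Tenm3 (-1.62 ± 0.10, adjusted p = 1.48e-06) and Flrt1 (-0.80 ± 0.21, adjusted p = 0.0153), the last of which DESeq2 did not call. At least 1 gene of each family was thus lower in the pooled interneurons than in this sum. Upper-layer neurons gave most of its cells (611 and 767, against 28 and 44 in layer 5 and 84 and 89 in layer 6). Tenm3 in MGE interneurons (328.3 and 351.9 CPM) did not lie below layer 5 neurons (269.1 and 327.9). Flrt3 there (34.3 and 35.2) overlapped layer 6 neurons (20.2 and 44.5). Tenm4, Adgrl2 and Flrt1 in MGE interneurons lay below both deep layers. CGE interneurons were the smaller part of the pool, with 78 and 72 cells against 300 and 324 from the MGE. Their Flrt1 (63.1 and 27.8 CPM) did not lie below layer 5 (38 and 25.8) or layer 6 neurons (24.7 and 29.3). Flrt3 in CGE interneurons (39.1 and 76.6) overlapped layer 5 neurons (34.5 and 65.6). Tenm3, Tenm4 and Adgrl2 in CGE interneurons lay below both deep layers. Adgrl3 (-0.01 ± 0.08), Tenm1 (0.04 ± 0.09), Flrt2 (-0.07 ± 0.17), Tenm2 (-0.11 ± 0.12) and Adgrl1 (-0.13 ± 0.10) did not pass, although Tenm2 did with the library as a block, at -0.12 ± 0.05 (adjusted p = 0.0218). Of 17 partners, 6 were higher and 5 lower (median 0.19 beside -0.01), with Nrxn3 at 8.32 and Fgfr1 at -2.07.

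The striatum lies below the cortex, and neurons with striatal markers of the D1 and D2 types were present in both libraries. D1-type neurons were higher than D2-type neurons in 2 of 9 tested members and lower in none, where 6.0% of 7705 genes passed the same test (3.62% higher and 2.38% lower). Tenm2 had 2525 and 3635 against 1425 and 1970.5 CPM (0.88 ± 0.17, adjusted p = 0.00254) and Flrt3 113 and 89.7 against 55.9 and 43 (1.07 ± 0.26, adjusted p = 0.0157). Both calls were lost among cells with 3000 to 30000 UMIs, with stricter gates and with all classes in a single fit, and DESeq2 did not call Flrt3. With stricter gates Adgrl2 was instead called lower in D1-type neurons (-1.16 ± 0.29, adjusted p = 0.0344). With the library as a block Tenm4 passed as well, at 0.50 ± 0.14 (adjusted p = 0.0173). Tenm1, Tenm3, Adgrl1, Adgrl2, Adgrl3 and Flrt2 gave 0.29, 0.05, 0.07, -0.50, 0.29 and 0.18, and Flrt1 was too low to be tested. Partners divided into 2 higher and 2 lower of 13 (median 0.02 beside 0.00), with Unc5d at -2.50.

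MGE interneurons and striatal neurons, both GABAergic, differed in 6 members, 2 higher and 4 lower in the interneurons, where 14.4% of 10310 genes passed the same test (7.75% higher and 6.65% lower). Tenm2 (3762 and 4984 against 2176 and 2966 CPM, 0.79 ± 0.15, adjusted p = 0.00439) and Adgrl3 (977 and 961 against 651 and 589, 0.67 ± 0.11, adjusted p = 0.00185) were higher. Lower in the interneurons were Flrt3 (34.3 and 35.2 against 95.2 and 70.9, -1.24 ± 0.20, adjusted p = 0.0012), Flrt2 (-0.76 ± 0.20, adjusted p = 0.0243), Tenm4 (-0.72 ± 0.12, adjusted p = 0.00194) and Tenm3 (-0.50 ± 0.12, adjusted p = 0.0184). Fitted with all classes together, Tenm2, Tenm3 and Adgrl3 lost their calls and 3 members were left, and DESeq2 did not call Tenm3 either. Tenm1, Adgrl1, Adgrl2 and Flrt1 gave 0.13, -0.31, -0.08 and 0.09. Partners were higher in 7 and lower in 2 of 14 cases (median 0.59 beside 0.01), with Unc5c at 3.65 and the Slit receptor gene Robo1 at -2.06.

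In vessels, endothelial cells differed from mural cells in 3 of 7 tested members, 2 higher and 1 lower, where 28.5% of 8706 genes passed the same test (14.4% higher and 14.2% lower). Adgrl2 was higher in endothelial cells, at 438 and 498 against 51.3 and 46.8 CPM (3.27 ± 0.19, adjusted p = 2.74e-06), and so was Flrt2, at 251 and 247 against 34.2 and 19.5 (3.24 ± 0.24, adjusted p = 1.17e-05). Adgrl3 was lower (303 and 259.8 against 490.0 and 489.7 CPM, -0.78 ± 0.16, adjusted p = 0.00605), a call that DESeq2 did not make (adjusted p = 0.0682). Adgrl2 was thus higher in the inner and Adgrl3 in the outer cells of the vessel wall. Tenm3, Tenm4 and Adgrl1 gave 0.48, -0.73 and 0.15 and did not pass, and Tenm1, Flrt1 and Flrt3 were too low to be tested. Tenm2 gave -0.05 ± 0.83, and its level varied between libraries, at 59.7 and 541 CPM in endothelial and 105 and 517 in mural cells. With doublets left out its level was 16.2 and 10.4 in endothelial and 25.8 and 621.7 in mural cells, and the difference became -4.61 ± 1.04 (adjusted p = 0.00512). With the narrower cell filter the difference was -2.31 ± 0.69 (adjusted p = 0.02), from 71.6 and 9.77 CPM in endothelial and 52.8 and 373 in mural cells. There WT replicate 1 went the other way, and both calls rest mainly on the mural level of WT replicate 6. Of 14 partners, 2 were higher and 2 lower (median -0.45 beside 0.00), with Adgrl4, the endothelial relative of the latrophilins, at 9.10 and the glypican gene Gpc3 at -7.65.

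Mural cells and fibroblasts differed in 6 of 8 tested members, 2 higher and 4 lower in mural cells, where 28.2% of 7602 genes passed the same test (13.8% higher and 14.4% lower). Flrt2, at 34.2 and 19.5 against 438 and 364 CPM, was lower in mural cells (-3.99 ± 0.26, adjusted p = 1.72e-08), the largest difference of any member in the 12 comparisons. Flrt3 (2.14 and 5.85 against 49.4 and 42.3 CPM, -3.49 ± 0.54, adjusted p = 1.24e-04), Adgrl2 (-1.84 ± 0.24, adjusted p = 2.24e-05) and Tenm3 (-1.78 ± 0.53, adjusted p = 0.0211) were also lower. Mural cells were at background for both Flrt genes, and for Tenm3 neither class lay above the erythroid level in both libraries, at 30 and 7.8 CPM in mural cells and 87.7 and 34.2 in fibroblasts beside 33.3 and 57.9 in erythroid cells. Adgrl3 was higher in mural cells, at 490.0 and 489.7 against 209 and 121 CPM (1.49 ± 0.23, adjusted p = 1.24e-04). Tenm2 was called higher as well (2.94 ± 0.57, adjusted p = 9.98e-04) but lay at 105 and 517 CPM in the 2 mural libraries, a range that overlapped that of erythroid cells, and at 27 and 48.3 in fibroblasts, below it. DESeq2 called neither Tenm2 nor Tenm3. Tenm4 (0.24) and Adgrl1 (-0.50) did not pass, and Tenm1 and Flrt1 were not tested. Of 12 partners, 2 were higher and 6 lower (median -0.80 beside -0.01), with Unc5b at 6.44 and Robo1 at -3.66.

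Shares of cells with a UMI depend on depth, so each cell was thinned to 1500 UMIs before cells were counted. Tenm2 was then found in 89.3% and 88.8% of layer 6 neurons and 79% and 86.1% of MGE interneurons, against 11% and 14.1% of erythroid cells. Tenm4 was found in 82.7% and 88.7% of newborn excitatory neurons and 71% and 73.2% of IPCs, but in 16.5% and 17.2% of radial glia, against 5.93% and 6.34% of erythroid cells. Adgrl3 was found in 65.4% and 95% of oligodendrocyte precursors, 64% and 63.1% of upper-layer neurons and 46.4% and 47.8% of mural cells, against 8.05% and 5.28% in erythroid cells. Each of these genes was found in most cells of its highest class. Median depth before thinning was 10725 and 8139 UMIs in layer 6 neurons and 3094 and 3757 in erythroid cells.

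The Flrt genes were found in fewer cells. Flrt2 was detected in 44.7% and 33.3% of thinned fibroblasts, Flrt3 in 12.8% and 25.6% of Cajal-Retzius cells and 18.5% and 18.1% of upper-layer neurons, and Flrt1 in at most 9.19% of any class as a mean of the libraries. The erythroid shares were 1.27% and 3.87%, 1.69% and 0.352% and 0.424% and 0.352% in that order of genes. Without thinning, Flrt3 was found in 63.5% and 60.1% of upper-layer neurons and 3.81% and 2.82% of erythroid cells. Flrt1 was found in 0 of 130 endothelial cells, which allows a share of cells with a UMI of up to 2.31% and sets no limit on cells that express the gene.

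**Figure D5:**
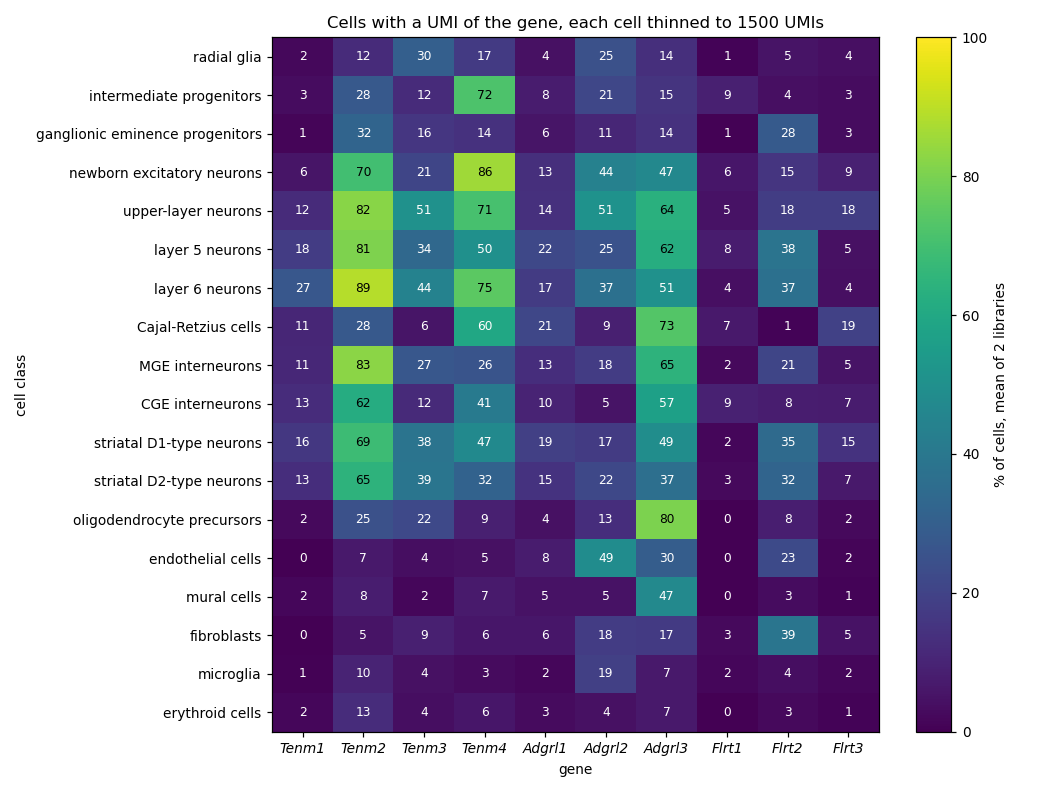
Percentage of cells with at least 1 UMI of each member (colour and number, mean of 2 libraries) in 18 classes after thinning each cell to 1500 UMIs. Tenm2 reaches 89.0% in layer 6 neurons and Tenm4 85.7% in newborn excitatory neurons, while Flrt1 stays under 10% in each class.

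Ligand and receptor were often found in the same cell. Joint shares rise with how widely each family is found, and they were not compared with what the separate shares would give. Doublets were kept in these counts. At 1500 UMIs, a UMI of any teneurin together with one of any latrophilin was seen in 79.7% and 79.9% of upper-layer neurons, 68.6% and 73.1% of newborn excitatory neurons and 21.1% and 19% of radial glia. Erythroid cells gave 6.36% and 7.75%. Genes of all 3 families were found together in 31% and 33.7% of layer 6 neurons, 28.3% and 30.6% of upper-layer neurons and 2.63% and 2.51% of radial glia, against 1.27% and 2.46% of erythroid cells. Endothelial cells differed by family, since 62.3% and 65.6% held a latrophilin and 7.25% and 9.84% a teneurin, the latter below the 18.2% and 19.7% of erythroid cells. Mural cells had a similar split in level. Their Adgrl3 was at 490.0 and 489.7 CPM, and no teneurin exceeded the erythroid level there in both libraries.

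Across the 18 classes the pattern of each member was compared with those of the others and of all 11676 genes that reached 20 CPM in a class and served no gate as Pearson's r of log2(mean CPM + 1), a description without a test over classes that share libraries. Tenm4 and Flrt1 were the most alike pair of members (r = 0.87), followed by Tenm1 and Tenm2 (r = 0.86), whereas Tenm1 and Adgrl2 were the least alike (r = 0.05). The genes closest to each teneurin were Stmn4 and Pdzd4 for Tenm1 (r of 0.96 for each), Grin2b, Dpf1 and Dlgap4 for Tenm2 (0.93, 0.92 and 0.92), Celf2, Zfp786 and Glt1d1 for Tenm3 (0.92, 0.88 and 0.88), and 4930578M01Rik, Gm15414 and Mturn for Tenm4 (0.94 for each). Those closest to the latrophilins were Zfp512b, Mical3 and Syn3 for Adgrl1 (0.94 for each), Nt5dc3, Coa7 and Nudt16 for Adgrl2 (0.79, 0.78 and 0.77), and Kcnmb4os2, Acap3 and Slc1a1 for Adgrl3 (0.88, 0.87 and 0.86). Adgrl2, with its neuronal and endothelial peaks, and Flrt2 thus had weaker matches than the other members. The Flrt genes were closest to Gm15414, Macrod1 and Flywch2 for Flrt1 (0.88, 0.88 and 0.87), Plxna2, Tll1 and Gstm7 for Flrt2 (0.74, 0.73 and 0.71), and Cxadr, Prkaa2 and Abca5 for Flrt3 (0.91, 0.91 and 0.88). Macrod1 is the gene that contains Flrt1 on the opposite strand.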

How the data were processed

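Single-cell 3′ libraries of papain-dissociated WT tissue were made with 10x chemistry, and the authors counted UMIs with Cell Ranger 7.0.0 on mm10. The deposited matrices hold raw counts per gene and cell barcode without normalization. Whether intronic reads or strand entered the counting is not given in the sources used here. The members and gene lists were chosen with earlier results of these data known.

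A cell was kept if it had between 1500 and 60000 UMIs, of which less than 10% came from mitochondrial genes. The matrices give no cell types, so cells were gated by the number of distinct markers detected, with thresholds set on marker genes after the data were seen, and 14 cells that passed 2 gates were left out. No doublets were removed. Leaving out the 920 and 857 cells with the highest Scrublet scores (scanpy 1.11.5) was an alternative. Counts were summed per class and library and tested between classes with edgeR 4.0.16 (R 4.3.3), with filterByExpr, TMM scaling, glmQLFit and glmQLFTest and Benjamini-Hochberg adjustment, which was checked on simulated data. Thinning and intervals used Python 3.11.15, numpy 2.4.6, scipy 1.17.1 and pandas 2.3.3. Limits for a count of 0 (3 counts) cover counting error only.

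Each of the 2 libraries holds both classes of every comparison and thereby pairs the samples. Deviations of same-library sums correlated with r from 0.256 to 0.499 over the 12 comparisons. The 2 libraries differed by more than sampling noise (chi-square per degree of freedom 22.9 over 26576 genes). All 10 members are named in each comparison. Of the 19 binding partners, those with the largest rise and fall among the called are named, and the 3 genes with the most similar pattern are named for each member. Of the genes these rules name, 2 are not reported here. Alternatives were DESeq2 1.42.0, no TMM scaling, no filter on low counts, the library as a replicate block, a single fit over all classes, a narrower cell filter, doublets left out, stricter gates, progenitors without cycling markers and each library left out. Conditional knockout samples were not analysed here.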

Additional observations from a re-analysis of the deposited data

How the results depend on the processing

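Of 114 member tests, the direction and the side of the threshold stayed as reported in 102 with DESeq2, 111 without TMM scaling, 108 without the filter on low counts, 99 in a single fit over all classes and 103 with stricter gates. With the library as a replicate block 105 stayed, 9 gained a call and 0 lost one, and the block changed no other call. The narrower cell filter kept 104 of 112 tests and leaving out doublets 104 of 111. In 3 cases the sign turned: Adgrl2 between radial glia and IPCs became 0.37 with stricter gates, Flrt2 between the same classes 0.57 among progenitors without cycling markers, and Tenm1 between radial glia and ganglionic eminence progenitors 0.92 with doublets left out.

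The number of members called moved by more than 1.5 times in 4 comparisons. Between newborn and upper-layer neurons it was 3 in the single fit instead of 7, and between MGE interneurons and striatal neurons 3 instead of 6. Between layer 5 and layer 6 neurons it was 6 with the replicate block instead of 3. Between D1-type and D2-type neurons it was 2 as reported, 1 with DESeq2, 1 with stricter gates (Adgrl2, lower in D1-type neurons), 0 by edgeR in the single fit (3 members at an unadjusted p under 0.05) and 0 by edgeR with the narrower cell filter (4 at an unadjusted p under 0.05). The cause of these changes was not tested. With either library left out no test remains. The differences then moved by more than 1 SE in 43 of 114 cases without WT replicate 1 and in 60 without WT replicate 6. None of the called differences changed sign, which only restates that their within-library differences share a sign. The highest class stayed the same for 8 of 10 members under each of the cell filter, the doublet removal and the gates taken alone, with Adgrl1 changing under all of them and Adgrl3, Flrt3 and Flrt1 under 1 each, and the class of highest detection at 3000 UMIs for 9 of 10. With 2 libraries of one genotype, small classes (20 to 44 cells per library for oligodendrocyte precursors and layer 5 neurons) and free RNA limit what low levels can show.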
